A study of Mus musculus with 20 samples.

Results

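The mRNAs described here are those of 10 heat shock proteins and chaperones of mouse plantaris muscle: Hspa1a, Hspa1b, Hspb1, Cryab, Hspa8, Hsp90aa1, Hsph1, Dnajb1, Hspa5 and Hspd1. They were taken by name from a fixed list, drawn up with earlier results of these data known. All 10 were found among the 54532 genes of the count tables, of which 30194 had at least 1 count. The study asked what miR-1, a microRNA abundant in striated muscle, does in muscle growth under load. Mechanical overload (MOV) was produced by bilateral removal of part of the synergist muscles, and control mice had a sham operation. The 4 groups, each with 5 libraries, joined either surgery with either virus (MOV control, MOV mimic, sham control, sham mimic), all from male C57BL/6J mice 5 months of age, with muscle collected 10 days after surgery. Every mouse received 50 µL of lentivirus per muscle at surgery, a control virus in the left plantaris and a miR-1 mimic virus in the right one, both driven by a mouse CMV promoter with TurboGFP as reporter. There was no group without virus or without surgery, the promoter is not restricted to muscle fibers, and mature miR-1 was not measured by these libraries. Left and right muscles of a mouse fall into different groups, and the labels do not state which control and mimic libraries share a mouse.

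Heat shock proteins bind unfolded or damaged proteins, keep them from aggregating and help them refold. HSP70 proteins (Hspa1a, Hspa1b, Hspa8) work in cycles of ATP hydrolysis set going by J-domain partners (Dnajb1) and reset by nucleotide exchange factors (Hsph1, an HSP110), while HSP90 (Hsp90aa1) acts on signaling proteins at a late step of folding. Small heat shock proteins (Hspb1, Cryab) need no ATP and in muscle associate with desmin, actin and titin. Hspa5 (BiP) serves the endoplasmic reticulum (ER) and Hspd1 (HSP60) the mitochondrial matrix. Heat, oxidation and unfolded proteins activate the transcription factor HSF1, which binds repeated 5-base units in promoters, and ER stress acts on Hspa5 through a different element.

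Promoter sequences are shown for the members whose RefSeq window (GRCm38.p6, 250 bases before to 50 after an annotated start) held such an element, since these letters are the known elements of the heat shock and ER stress responses. Windows were found for 7 members, with 10 windows in all; Cryab, Hspa8 and Hsp90aa1 had no entry. The motifs searched were GAANNTTC and TTCNNGAA, each a pair of heat shock units that reads the same on both strands, then the 3-unit heat shock element, which extends either by a further unit and so overlaps them, and the ER stress element on both strands. GAANNTTC was found in 7.86% and TTCNNGAA in 8.52% of all 32851 windows of the same length, either of them in 15.1%, the 3-unit element in 0.603% and the ER stress element in 0.119%. In the sequences below, 5′ to 3′ on the strand of the gene, capitals mark the matches, with 10 bases on each side.
Hspa1a, chr17:34972243-34972270, minus strand: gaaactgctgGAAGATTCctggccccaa
Hspa1b, chr17:34959325-34959352, minus strand: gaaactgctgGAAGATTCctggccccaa
Hspb1, chr5:135887792-135887839, plus strand: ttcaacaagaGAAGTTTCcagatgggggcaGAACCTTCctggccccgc
Hsph1, chr5:149636278-149636379, minus strand: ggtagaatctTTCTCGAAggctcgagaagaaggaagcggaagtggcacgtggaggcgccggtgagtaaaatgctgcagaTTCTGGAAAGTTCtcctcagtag
Hspd1, chr1:55088049-55088086, minus strand: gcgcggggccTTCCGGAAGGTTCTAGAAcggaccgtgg
Hspa5, chr2:34772015-34772053, plus strand: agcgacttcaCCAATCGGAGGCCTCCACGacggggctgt

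The Hspa1a and Hspa1b stretches are the same letters at the same distance, from base -104 to base -97 relative to the start, and the whole windows agreed at 296 of 300 positions (98.7%). Hspb1 held GAANNTTC at 2 places, from base -117 and from base -97. Hsph1 held TTCNNGAA before its start and a 3-unit element just after it, from base 15 of the second annotated start. The second Hspd1 window held 2 overlapping 3-unit elements between bases -144 and -127, and Hspa5 was the member with an ER stress element, from base -65 to base -47. Neither Dnajb1 window nor the first Hspd1 window held any of these letters. These matches describe letters in a window and say nothing of binding in these muscles.

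**Figure D1:**
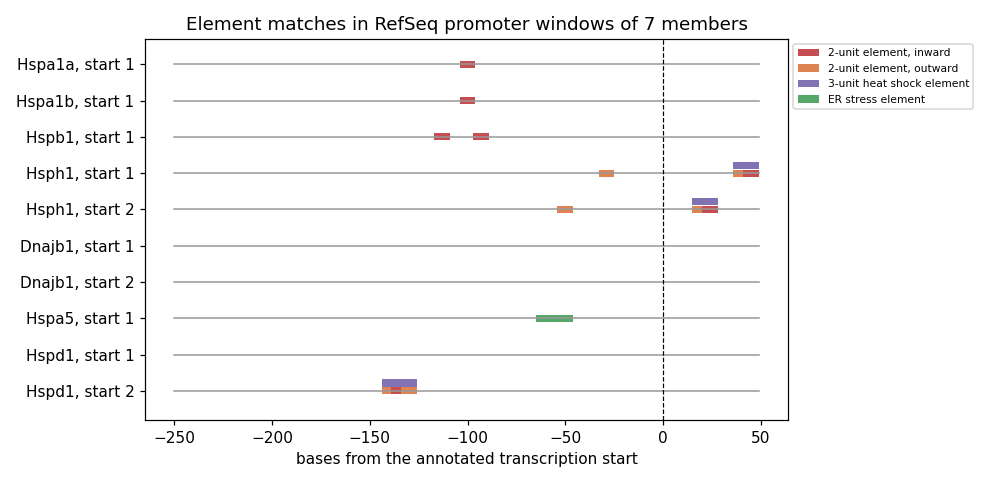
Each line is 1 RefSeq promoter window of a member, the x axis gives bases from the annotated start, and blocks mark matches on the gene's strand (inward 2-unit element, GAANNTTC; outward 2-unit element, TTCNNGAA; 3-unit elements drawn slightly above). Hspa1a and Hspa1b carry a match at the same position, from base -104, and the Hspa5 line alone carries the ER stress element, from base -65.

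Levels were taken as CPM, read counts scaled to a common library size, after TMM scaling, which removes differences in library composition. The libraries held 12036360 to 23056525 counted reads (median 16940547.5), and the least abundant members still had at least 82 (Hspa1b) and 102 (Dnajb1) reads in every library. Muscle fiber markers were high in every library, with summed levels of 61122 to 166848 CPM. MOV control libraries 4 and 5 stood apart from the other 3 of their group: fibroblast markers summed to 4397 and 3225 CPM against 9589 to 11795 CPM, and endothelial markers to 134 and 122 CPM against 181 to 242 CPM. In sham control library 1 fibroblast markers summed to 905 CPM against 4285 to 10461 CPM in the other 4, and leukocyte markers to 302 CPM against 610 to 1114 CPM. Sham mimic library 1 had 1329 CPM of fibroblast markers against 5059 to 9524 CPM. Immediate early genes, which respond within minutes to stimulation, summed to 1138 CPM in MOV control library 4 and to 210 to 362 CPM in the other 4. Since whole muscle was sequenced, a smaller share of cells of a type and less RNA per cell cannot be told apart in any value below.

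Per kilobase of exon, Cryab was the highest member in sham control, with 636 ± 67.0 CPM per kilobase (SD, n = 5). Hspb1 (310 ± 60.9) and Hspa8 (292 ± 31.8) came next and their libraries overlapped, so that their order is not set. Hspd1 (80.6 ± 17.1) and Hspa5 (69.4 ± 15.3) overlapped as well, followed without overlap by Hsp90aa1 (24.8 ± 6.05) and Hsph1 (12.2 ± 2.51). Dnajb1, Hspa1a and Hspa1b were the lowest, at 5.04 ± 1.53, 5.02 ± 2.14 and 4.99 ± 2.90 CPM per kilobase, and overlapped. By this measure small heat shock proteins and the constitutive HSP70 led, while the stress-inducible HSP70 pair and its J-domain partner lay at the bottom. The lengths joined all annotated exons of a gene and can exceed that of 1 transcript, so the order depends on them. In CPM without division by length, Hspa8 (1212 ± 132) lay above Cryab (754 ± 79.4) in sham control. Over all 20 libraries, the coefficient of variation in CPM was 75.5% for Hspa1a, 74.4% for Hspa1b, 49% for Hspb1 and 46.2% for Dnajb1, against 16.1% for Hspa8 and 16.9% for Hspa5.

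**Figure D2:**
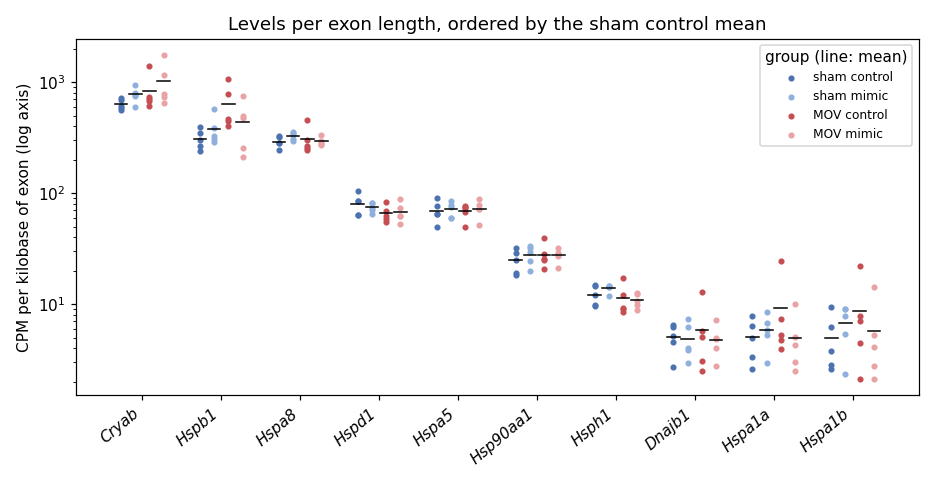
CPM per kilobase of exon (log axis) of the 10 members, ordered by their sham control mean; points are libraries (5 per group) and lines are group means. Cryab leads at 636 CPM per kilobase in sham control, and Dnajb1, Hspa1a and Hspa1b share the lowest level, near 5.04 to 4.99.

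MOV was compared with sham under control virus to describe the response of these genes to load. No member passed an edgeR adjusted p of 0.05 (0 of 10), where 0.00668% of the 14974 genes tested were called, and 1 of 10 had an unadjusted p under 0.05, as had 18.2% of genes. DESeq2 called 1 member, Hspb1, where it called 6.1% of genes. Hspb1 was also the only member whose MOV and sham libraries did not overlap, which was so for 4.88% of genes. The fitted log2 fold change (log2FC) was positive for 8 and negative for 2 members, with a median of 0.23 against 0.040 over all genes tested. That tally depended on MOV control library 4. Without it Hspa8 (-0.10), Dnajb1 (-0.27) and Hspa5 (-0.031) turned negative, Hspa1a fell to 0.12 and Hspb1 was 0.77.

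Under mimic virus, MOV against sham gave positive values for 5 members and negative values for 5, with a median log2FC of -0.044 against 0.017 over all genes. edgeR called 0 of 10 members and 0% of genes, with 1 member and 13.4% of genes at an unadjusted p under 0.05, and DESeq2 called 0 members and 1.49% of genes. No member had groups without overlap, against 2.84% of genes.

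Mimic against control within MOV compares the 2 viruses under load, and virus cannot be told apart from side, left or right. By qPCR the paper found a smaller fall of miR-1 with mimic virus after MOV, and no increase in sham muscle. Without pairing of libraries, edgeR called 0 members and 0% of genes and DESeq2 0 members and 0.0197% of genes. In edgeR 0 members and 4.21% of genes had an unadjusted p under 0.05, again without pairing. With control and mimic libraries joined by number, which no label ties to a mouse, DESeq2 called 127 of 15220 genes and no member. The median log2FC of the members was -0.049 against -0.0053 over all genes, with 3 positive and 7 negative. All groups overlapped where 0.756% of genes did not. This direction depended on MOV control library 4. Without it Dnajb1 (0.21), Hsph1 (0.16), Hsp90aa1 (0.14), Hspa8 (0.13) and Hspa1b (0.081) turned positive. Hspb1 (-0.24) and Hspa1a (-0.11) stayed negative. Leukocyte markers had a median log2FC of 0.50 in this comparison and of 0.77 in the interaction (8 of 8 positive in both). Immediate early genes had medians of -0.29 (0 of 8 positive) and -0.24 (2 of 8 positive). Markers of regenerating fibers and satellite cells had -0.41 (1 of 6 positive) and -0.18 (2 of 6 positive). The part of these markers in the members' values was not tested. In sham muscle, mimic against control gave the members a median of 0.18 against 0.0011 over all genes, with 8 positive and 2 negative. There edgeR and DESeq2 each called 0 members and 0% of genes, 0 members and 1.72% of genes had an unadjusted p under 0.05 in edgeR, and all groups overlapped where 0.359% of genes did not. The interaction of surgery and virus, tested on 20 libraries, was called by edgeR for 0 members and 0% of genes and by DESeq2 for 0 members and 0.00619% of genes, with 0 members and 2.64% of genes at an unadjusted p under 0.05 in edgeR, again without pairing. MOV against sham under control virus and mimic against control within MOV share the MOV control libraries, so their values are not independent.

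**Figure D3:**
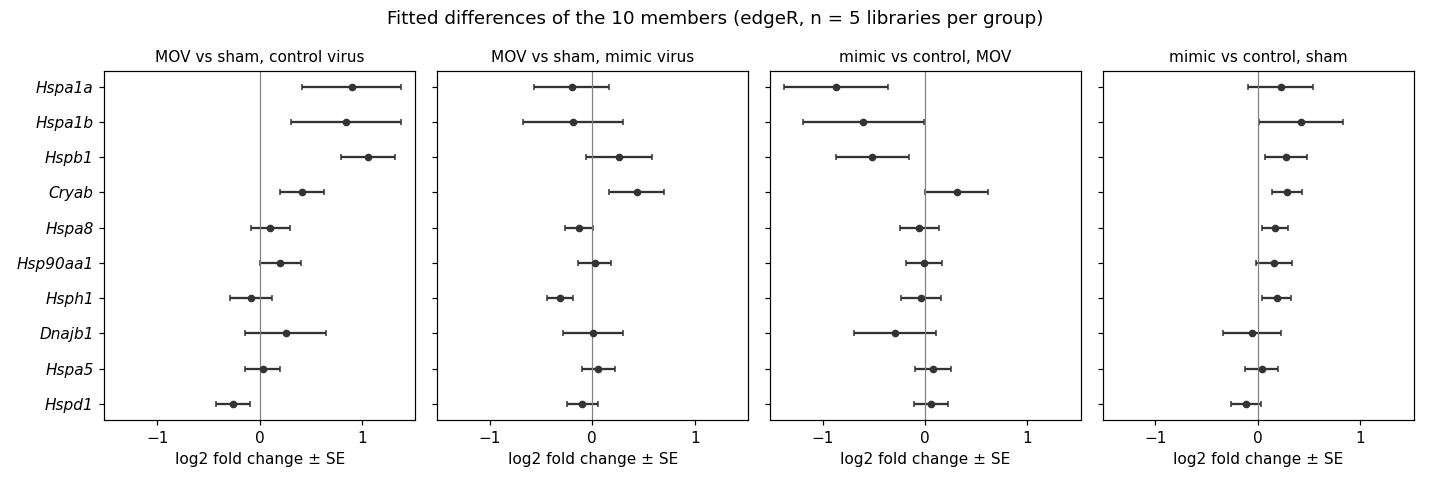
Fitted log2 fold changes (x axis) with their standard errors for the 10 members in 4 comparisons, from edgeR on 5 libraries per group. Hspb1 under control virus, at 1.06, has the smallest adjusted p of any member, 0.0724, and no member passed 0.05 in any panel.

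Hspb1 (HSP27, ENSMUSG00000004951, chr5:135887919-135889563), which guards actin and other filaments, showed the clearest separation. In sham control its 5 libraries held 249, 274, 403, 361 and 313 CPM (libraries 1 to 5), and in MOV control 458, 414, 479, 1109 and 802 CPM. Every MOV control library lay above every sham control library, with means of 652 ± 298 and 320 ± 62.8 CPM (SD, n = 5). The log2FC was 1.06 (SE 0.26, 2.09-fold), with an edgeR adjusted p of 0.0724 and a DESeq2 adjusted p of 0.00512. MOV control libraries 4 and 5, the pair with low fibroblast and endothelial markers, were the highest for Hspb1, and sham control library 1 was the lowest. Muscle fiber markers were also highest in that pair (126556 and 145114 CPM against 81438 to 94076 CPM) and leukocyte markers lowest (383 and 321 CPM against 804 to 973 CPM). Sham control library 1, the lowest for Hspb1, likewise had the most muscle fiber markers of its group (166848 CPM against 108965 to 137223 CPM). It also had the fewest leukocyte markers of its group, 302 CPM. Without MOV control library 4 the log2FC was 0.77 (edgeR adjusted p 0.156, DESeq2 adjusted p 0.027). Without MOV control libraries 4 and 5 it was 0.53 (edgeR adjusted p 0.125, DESeq2 adjusted p 0.044). The part of the marker difference in the result was not tested.

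Under mimic virus the Hspb1 groups overlapped widely. Sham mimic libraries held 339, 596, 295, 315 and 396 CPM and MOV mimic libraries 494, 219, 776, 514 and 263 CPM, so that both the lowest and the highest value of the comparison were in MOV mimic. The log2FC of MOV against sham was 0.26 (SE 0.32, edgeR adjusted p 0.755). Mimic against control was -0.51 (SE 0.35) within MOV and 0.28 (SE 0.21) within sham. The test of whether the response to MOV differed between viruses gave -0.80 (SE 0.44, unadjusted edgeR p 0.0871), so a difference between viruses was not shown. With 1 library left out, the Hspb1 value within MOV was -0.24 without MOV control library 4 and -0.80 without MOV mimic library 3, and the interaction -0.52 and -1.08 without the same libraries. Sham mimic library 2, the highest sham library for Hspb1, also had the highest summed regenerating fiber and satellite cell markers of its group, 1588 CPM against 66 to 235 CPM in the other 4, and their part in the value was not tested. Without that library the Hspb1 difference of mimic against control within sham was 0.076 and that of MOV against sham under mimic virus 0.46. Without MOV mimic library 3 the latter turned to -0.025.

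Cryab (alpha-B crystallin, ENSMUSG00000032060, chr9:50745951-50756636), the partner of desmin at the Z-disc, overlaps 2310030G06Rik and Hspb2 in the annotation, and the strand setting of the counting was not given, so reads in the shared stretch may not be told apart. It held 855, 819, 725, 671 and 699 CPM in sham control and 876, 804, 829, 1656 and 730 CPM in MOV control. Only library 4 of MOV control lay far above sham control. In sham mimic the libraries held 898, 916, 956, 702 and 1124 CPM, and in MOV mimic 1381, 928, 872, 2080 and 763 CPM. MOV mimic libraries 1 and 4 lay above all sham mimic libraries and the other 3 lay within their range. The log2FC of MOV against sham was 0.41 (SE 0.22) with control virus and 0.43 (SE 0.27) with mimic virus, and each fell to 0.13 when library 4 of the MOV group was left out. Mimic against control was 0.31 (SE 0.30) within MOV and 0.28 (SE 0.14) within sham. The value within MOV was 0.0087 (SE 0.27) without MOV mimic library 4, 0.57 (SE 0.28) without MOV control library 4 and 0.28 (SE 0.21) without both.

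Hspa1a (ENSMUSG00000091971, chr17:34969359-34972156) and Hspa1b (ENSMUSG00000090877, chr17:34956429-34959238) encode the stress-inducible HSP70. Their coding sequences were identical at 98.1% of positions, with an unbroken identical run of 638 bases, so that reads may have been split between them or dropped and each value alone is uncertain. Hspa1a held 9.8, 7.6, 22.8, 18.8 and 14.5 CPM in sham control and 15.5, 13.9, 21.7, 71.1 and 11.5 CPM in MOV control. Hspa1b held 7.9, 7.2, 26.5, 17.6 and 10.6 CPM in sham control and 19.6, 12.6, 22.1, 62.2 and 6.0 CPM in MOV control. Both genes were highest in MOV control library 4, and the other 4 MOV control libraries lay within the sham control range, apart from Hspa1b in library 5, which lay below it. Summed over both genes, MOV control had a mean of 51.2 ± 46.9 CPM and sham control 28.7 ± 14.2, while the MOV mimic mean was 30.6 ± 22.7 and that of sham mimic 36.1 ± 13.7 (SD, n = 5).

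The Hspa1a log2FC of MOV against sham was 0.90 (SE 0.48, edgeR adjusted p 0.346) under control virus and 0.12 (SE 0.31) without MOV control library 4. Hspa1b moved from 0.85 (SE 0.54) to 0.14 (SE 0.44). In sham mimic, Hspa1a held 8.7, 25.0, 17.3, 19.8 and 15.5 CPM and Hspa1b 6.5, 25.6, 25.3, 22.0 and 15.1 CPM. In MOV mimic they held 12.4, 8.7, 14.8, 29.4 and 7.3 CPM and 11.6, 7.8, 14.9, 40.2 and 5.9 CPM. Library 4 was again the highest for both. MOV against sham under mimic virus was -0.20 (SE 0.36) for Hspa1a and -0.19 (SE 0.49) for Hspa1b, and without MOV mimic library 4 -0.64 (SE 0.30) and -0.88 (SE 0.38). Mimic against control within MOV was -0.87 (SE 0.51) for Hspa1a and -0.11 (SE 0.37) without MOV control library 4. For Hspa1b it was -0.60 (SE 0.59), and 0.081 (SE 0.53) without that library. Leaving out MOV mimic library 4 moved the values the other way, to -1.30 (SE 0.50, unadjusted edgeR p 0.0223, adjusted p 0.955) for Hspa1a and -1.29 (SE 0.54) for Hspa1b. With both libraries numbered 4 left out they were -0.54 (SE 0.27) and -0.60 (SE 0.40). With control and mimic libraries joined by number, which no label ties to a mouse, Hspa1a was -0.69 (SE 0.16, unadjusted edgeR p 0.0015, adjusted p 0.391). Joined in this way, Hspa1b was -0.54 (SE 0.16, unadjusted edgeR p 0.0058, adjusted p 0.514). Within sham the mimic difference was 0.22 (SE 0.32) for Hspa1a and 0.42 (SE 0.41) for Hspa1b. For Hspa1a it was 0.059 without sham mimic library 2 and 0.45 without sham control library 3. For Hspa1b it ran from 0.27 to 0.81 with any 1 library left out. Sham mimic library 2 was the highest of its group for both genes. The interaction was -1.09 (SE 0.65) for Hspa1a, -0.34 (SE 0.52) without MOV control library 4, -1.54 (SE 0.63, unadjusted edgeR p 0.0251) without MOV mimic library 4 and -0.76 (SE 0.45) without both. For Hspa1b it was -1.03 (SE 0.79), and with the same libraries left out -0.34 (SE 0.71), -1.72 (SE 0.73, unadjusted edgeR p 0.0296) and -1.02 (SE 0.62).

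Dnajb1 (HSP40, ENSMUSG00000005483, chr8:83608175-83612653), the J-domain partner of inducible HSP70, held 12.7, 11.3, 16.1, 15.4 and 6.6 CPM in sham control and 12.6, 6.1, 14.2, 32.0 and 7.6 CPM in MOV control. MOV control library 4 was the only one above the sham control range. The sham mimic libraries held 10.0, 7.2, 18.1, 15.4 and 9.5 CPM and the MOV mimic libraries 12.3, 9.9, 11.9, 17.9 and 6.9 CPM, which overlapped. Its log2FC of MOV against sham under control virus was 0.25 (SE 0.40) and turned to -0.27 (SE 0.31) without MOV control library 4. Under mimic virus it was 0.0085 (SE 0.29). Mimic against control was -0.29 (SE 0.40) within MOV, 0.21 (SE 0.32) without MOV control library 4 and -0.50 (SE 0.42) without MOV mimic library 4, and -0.057 (SE 0.28) within sham.

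Hsph1 (HSP110, ENSMUSG00000029657, chr5:149616843-149636498), an exchange factor for HSP70, held 103, 69.4, 67.3, 85.0 and 104 CPM in sham control and 59.2, 65.0, 64.1, 122 and 85.5 CPM in MOV control. The groups overlapped, and 3 of the 5 MOV control libraries lay below all sham control libraries while library 4 lay above them. In sham mimic it held 101, 83.6, 103, 102 and 99.6 CPM and in MOV mimic 69.7, 88.8, 62.2, 75.4 and 86.8 CPM. Sham mimic was tight apart from library 2, and 3 MOV mimic libraries lay below all of it. The log2FC of MOV against sham under mimic virus, -0.32 (SE 0.13), had an unadjusted edgeR p of 0.0293 and an adjusted p of 0.336, and was between -0.38 and -0.25 when any 1 library was left out. Under control virus it was -0.083 (SE 0.21), and -0.30 (SE 0.17) without MOV control library 4. Without MOV control libraries 4 and 5 it was -0.42 (SE 0.17, unadjusted edgeR p 0.0339, adjusted p 0.190). The interaction was -0.24 (SE 0.25), so a difference between viruses was not shown.

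Hspa8 (HSC70, ENSMUSG00000015656, chr9:40801276-40805202), the constitutive HSP70 that also serves chaperone-mediated autophagy, overlaps the small nucleolar RNA genes Snord14c, Snord14d and Snord14e. It held 1321, 1188, 1020, 1180 and 1351 CPM in sham control and 1113, 1052, 1261, 1916 and 1009 CPM in MOV control. With mimic virus it held 1474, 1402, 1289, 1227 and 1438 CPM after sham surgery and 1131, 1220, 1156, 1403 and 1187 CPM after MOV. All groups overlapped and MOV control library 4 stood above every other library. MOV against sham was 0.11 (SE 0.19) under control virus, -0.10 (SE 0.15) without that library, and -0.13 (SE 0.14) under mimic virus. Mimic against control was -0.055 (SE 0.19) within MOV and 0.17 (SE 0.13) within sham.

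Hsp90aa1 (ENSMUSG00000021270, chr12:110691036-110696395), the inducible HSP90 that is also needed for folding of myosin, held 72.6, 75.4, 98.8, 115 and 127 CPM in sham control and 78.6, 96.5, 132, 125 and 115 CPM in sham mimic. In MOV control it held 98.1, 99.8, 111, 155 and 81.7 CPM and in MOV mimic 83.6, 111, 107, 125 and 113 CPM. The groups overlapped and their means lay between 97.7 and 109 CPM. The log2FC of MOV against sham was 0.20 (SE 0.20) under control virus, 0.029 (SE 0.18) without MOV control library 4, and 0.021 (SE 0.16) under mimic virus. For mimic against control it was -0.013 (SE 0.18) within MOV and 0.16 (SE 0.18) within sham.

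The organelle chaperones lay close to their group in MOV control library 4. Hspa5 (ENSMUSG00000026864, chr2:34772090-34776529), which overlaps Rabepk, held 176, 227, 228, 268 and 320 CPM in sham control and 240, 256, 265, 270 and 175 CPM in MOV control. With mimic virus the values were 209, 211, 262, 298 and 272 CPM after sham surgery and 183, 251, 274, 252 and 312 CPM after MOV. Its 4 group means lay between 241 and 255 CPM. MOV against sham was 0.030 (SE 0.17) under control virus and 0.060 (SE 0.16) under mimic virus, and mimic against control was 0.076 (SE 0.17) within MOV and 0.036 (SE 0.16) within sham.

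Hspd1 (ENSMUSG00000025980, chr1:55077833-55088243), which overlaps its co-chaperonin gene Hspe1, held 276, 226, 169, 169 and 225 CPM in sham control and 146, 155, 166, 183 and 218 CPM in MOV control. In MOV control 3 libraries lay below all sham control values, and the groups overlapped. In sham mimic it held 216, 173, 194, 214 and 188 CPM and in MOV mimic 166, 139, 165, 195 and 235 CPM. The log2FC of MOV against sham was -0.26 (SE 0.17) under control virus and -0.097 (SE 0.15) under mimic virus, neither called. Without sham control library 1, which held its highest level and stood apart by its fibroblast markers, the value under control virus was -0.14. Without MOV control library 5 that value was -0.35. Without MOV control libraries 4 and 5 it was -0.42 (SE 0.18, unadjusted edgeR p 0.0368, adjusted p 0.197). The mimic difference was 0.059 (SE 0.16) within MOV and -0.11 (SE 0.15) within sham.

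**Figure D4:**
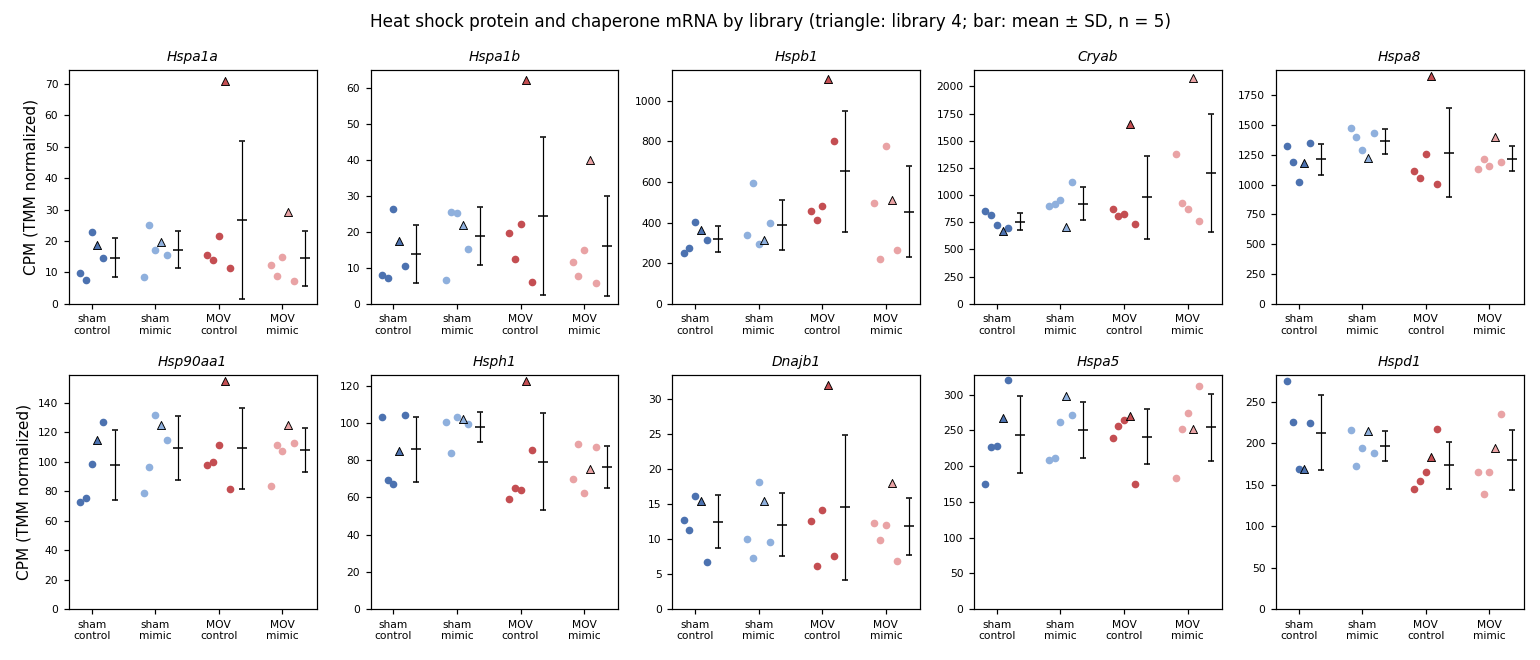
CPM (y axis, from 0) of each member in each library, by group; triangles mark library 4 of each group and bars give the mean ± SD of 5 libraries. MOV control library 4 is the highest of its group for 9 of the 10 members, and the Hspb1 MOV control libraries, from 414 CPM, all lie above the sham control libraries, up to 403 CPM.

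MOV control library 4 was the highest of its group for 9 of 10 members, where it was the highest for 20.3% of 16034 genes. Relative to the median of the other 4 libraries it was 4.83-fold for Hspa1a, 3.86-fold for Hspa1b, 3.17-fold for Dnajb1, 2.37-fold for Hspb1 and 2.03-fold for Cryab. Lower ratios were found for Hsph1 (1.90), Hspa8 (1.77) and Hsp90aa1 (1.57), and for Hspd1 (1.15) and Hspa5 (1.09) it lay close to the others. The HSP70 pair and Dnajb1 thus had the highest ratios in that library and the organelle chaperones the lowest, with the inducible Hsp90aa1 the lowest of the cytosolic members. MOV mimic library 4 was the highest of its group for 6 of 10 members and 23.2% of genes. Its ratios were 4.12 for Hspa1b, 2.77 for Hspa1a, 2.31 for Cryab, 1.64 for Dnajb1 and 1.36 for Hspb1. There the cytosolic Hspa8 (1.20), Hsp90aa1 (1.14) and Hsph1 (0.96) lay about level with the organelle members Hspd1 (1.18) and Hspa5 (0.96). The immediate early genes, at 1138 CPM in MOV control library 4, were at 487 CPM in MOV mimic library 4 against 227 to 356 CPM in the other MOV mimic libraries, and their part in these levels was not tested.

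**Figure D5:**
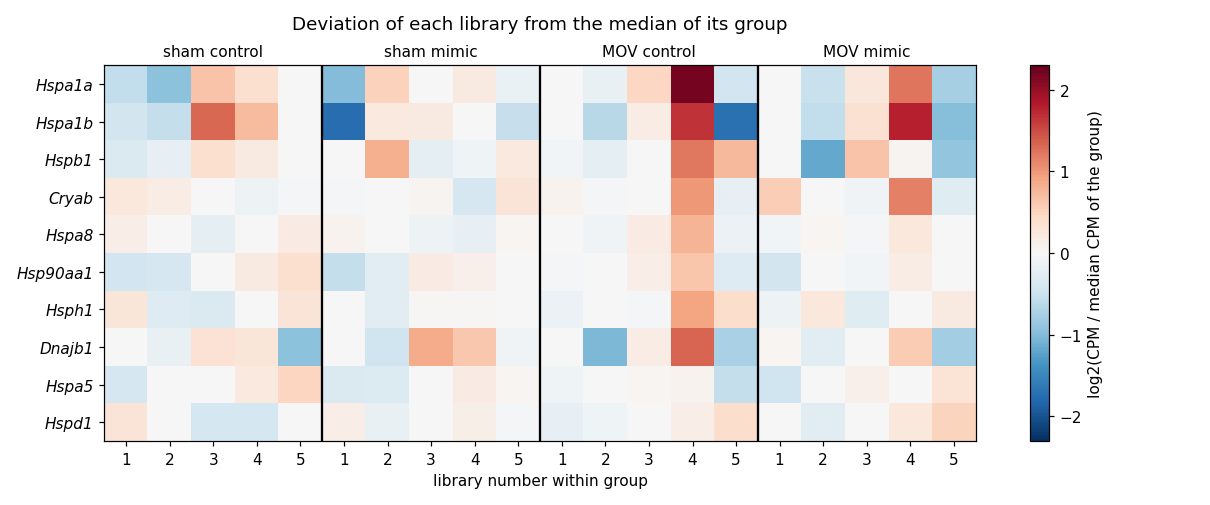
Color gives log2 of each library's CPM over the median of its group, for 10 members (rows) and 20 libraries (columns, numbered within group). The column of MOV control library 4 is raised for the cytosolic members, most for Hspa1a, at 71.1 CPM, and near the group median for Hspa5, at 270 CPM.

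Other genes of the chaperone network, from 9 lists with 96 genes of which 93 were tested, were called by edgeR in 0 cases in each of the 5 comparisons. At an unadjusted p under 0.05, 21 of the 93 (22.6%, against 18.2% of all genes) lay in MOV against sham under control virus, 7 under mimic virus (7.53% against 13.4%), 4 in mimic against control within MOV (4.3% against 4.21%), 3 within sham (3.23% against 1.72%) and 3 in the interaction (3.23% against 2.64%). DESeq2 called 5 of them (5.38%, against 6.1% of all genes) in MOV against sham under control virus, all higher in MOV, and 0 in the other comparisons, so the share called was near that of all genes. These 5, named after their values were seen, include Hspb8, the small heat shock protein that works with BAG3 in chaperone-assisted autophagy, with 528 ± 60.1 CPM in sham control and 1050.4 ± 474 CPM in MOV control (DESeq2 log2FC 1.02, SE 0.26, adjusted p 0.00512, edgeR adjusted p 0.0724). Hspb7, a small heat shock protein of striated muscle that binds filamin C, had 666 ± 207 and 1194 ± 315 CPM (DESeq2 log2FC 0.87, SE 0.26, adjusted p 0.0183, edgeR adjusted p 0.103). The others, by their DESeq2 log2FC, were Bag2, an HSP70 co-chaperone (0.67), Hsf2, a heat shock factor (0.54), and Dnajc18, a J-domain protein (0.40).

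By list, the 5 small heat shock proteins tested beside Hspb1 and Cryab had a median log2FC of 0.74 in MOV against sham under control virus, with 4 of 5 positive, and 0.40 under mimic virus, with 3 of 5 positive. The 11 mitochondrial chaperones and proteases had medians of -0.26, with 1 of 11 positive, and -0.19, with 0 of 11 positive. ER chaperones and genes of the unfolded protein response had medians of 0.11 (14 of 20 positive) and 0.13 (15 of 20 positive), and the subunits of TRiC, the cytosolic chaperonin that folds actin and tubulin, 0.072 (7 of 8 positive) and -0.051 (3 of 8 positive). Over all genes tested the medians were 0.040 and 0.017. The 12 other J-domain proteins had medians of 0.16 (7 of 12 positive) and -0.065 (5 of 12 positive). The 8 other HSP70 and HSP110 genes had 0.21 (5 of 8 positive) and -0.061 (3 of 8 positive). The medians of the 15 genes of HSP90 and its co-chaperones were -0.034 and -0.11, those of the 9 HSP70 exchange factors and adaptors 0.086 and 0.023, and those of the 5 heat shock factors and regulators tested 0.12 and 0.29. In the same comparisons markers of regenerating fibers and satellite cells had medians of 1.29 and 0.68 (6 of 6 positive in both), immediate early genes 0.80 (8 of 8 positive) and 0.52 (7 of 8 positive), and endothelial markers -0.55 and -0.67 (0 of 4 positive in both). Adipocyte markers had medians of -1.46 and -1.07 (0 of 3 positive in both), leukocyte markers -0.29 (3 of 8 positive) and 0.45 (7 of 8 positive), and muscle fiber markers -0.057 (4 of 8 positive) and -0.41 (2 of 8 positive). The part of these markers in the list medians was not tested. Within MOV, mimic against control had a median of -0.39 for the other small heat shock proteins (1 of 5 positive). It was -0.16 for the other J-domain proteins (0 of 12 positive) and -0.079 for TRiC (1 of 8 positive). For the ER list it was 0.056 (14 of 20 positive) and for the mitochondrial list -0.096 (4 of 11 positive). In the interaction the J-domain median was -0.16 (0 of 12 positive) and that of TRiC -0.11 (0 of 8 positive). All of these use MOV control libraries 4 and 5.

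Under control virus several list medians of MOV against sham rested on MOV control libraries 4 and 5. The summed level of the other small heat shock proteins was 5053 and 4701 CPM in that pair, against 2886 to 3158 CPM in the other 3 MOV control libraries and 1796 to 2978 CPM in sham control, and without the pair, a choice made after seeing the data, the list's median log2FC was 0.20 instead of 0.74. The other J-domain proteins summed to 1389.9 and 1260.1 CPM in the pair and to 899.7 to 962 CPM in the other 3, all 3 below the sham control libraries (978 to 1159 CPM), and their median was 0.031 without the pair. TRiC subunits summed to 1212 and 1218 CPM in the pair and to 859.9 to 943 CPM in the other 3, against 906 to 1086 CPM in sham control. Without the pair the medians of TRiC (-0.097, 1 of 8 positive) and of the other HSP70 and HSP110 genes (-0.049, 4 of 8 positive) were below 0. So was that of the heat shock factors and regulators (-0.061, 2 of 5 positive). The median of HSP90 and its co-chaperones was -0.19 (2 of 15 positive). The mitochondrial list summed highest among sham libraries in library 1 with both viruses, at 1577 CPM against 958 to 1272 CPM with control virus and 1388 CPM against 1022 to 1123 CPM with mimic virus, and these were the sham libraries with low fibroblast markers. Its median under control virus was -0.14 without sham control library 1 and -0.40 without MOV control libraries 4 and 5, with 1 of 11 positive each time. Without sham control library 1 the median of HSP90 and its co-chaperones was 0.018 (9 of 15 positive) and that of the ER list 0.018 (13 of 20 positive).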

How the data were processed

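RNA-seq libraries of plantaris muscle, 5 per group, were compared. The values deposited by the authors are raw counts per Ensembl gene, whole numbers with no normalization. The submitters' processing notes name FastQC 0.11.9, cutadapt 4.4, Trim Galore 0.6.10, HISAT2 2.0.5 and featureCounts 1.5.0-p3, and the methods name GRCm38; whether counting used strand, and what was done with multi-mapping reads, is not given in the sources used here. No 2 libraries of a group were alike (chi-square per gene 12.7 to 154 over 40 pairs). Labels do not say which libraries share a mouse, so p-values measure the spread between libraries.

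Counts were tested with the quasi-likelihood test of edgeR 4.0.16 (TMM, filterByExpr) on the 10 libraries compared, or 20 for the interaction, two-sided, with Benjamini-Hochberg adjustment over all genes tested and a threshold of 0.05. The alternatives were DESeq2 1.42.0, its size factors in edgeR, no filter, a replicate block, all 20 libraries, and each library left out. SE was derived from the log2FC and the F statistic. The scripts were tested on simulated data. Exon lengths and the coding sequences of Hspa1a and Hspa1b came from an annotation of an earlier build (NCBIM37), gene coordinates and promoters from RefSeq (GRCm38.p6). The 10 members, the gene lists and the motifs were chosen with earlier results of these data known. Named were the 10 members and, from each list, up to 2 called genes in each direction; genes called by DESeq2 alone were named after their values were seen. Sites for miR-1 were not analysed here.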

Additional observations from a re-analysis of the deposited data

Results flagged for a closer look

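In 40 groups of 5 libraries (10 members in 4 groups), 6 values lay farther from the rest of their group than Dixon's ratio of 0.71 allows; chance gives such a value in about 1 in 20 groups. MOV control library 4 gave 4 of them: Hspa1a at 71.1 CPM, Hspa1b at 62.2 CPM, Cryab at 1656 CPM and Hspa8 at 1916 CPM, each above the other 4 libraries. Hspa1b at 40.2 CPM in MOV mimic library 4 was also above its group. Hsph1 at 83.6 CPM in sham mimic library 2 lay below the other 4, which held 99.6 to 103 CPM.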

How the results depend on the processing

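Under control virus, MOV against sham had 0 members called by edgeR and 1, Hspb1, under each of DESeq2, no filter, DESeq2 with a replicate block, DESeq2 without MOV control library 4 and DESeq2 without MOV control libraries 4 and 5 (the last 2 chosen after seeing the data); the cause was not tested. In MOV against sham, with either virus, the block joined sham and MOV libraries of the same number. Those libraries came from different mice, so there the block is no pairing and its calls carry no added weight. Over all genes MOV against sham under control virus gave 1 call with edgeR, 913 with DESeq2 and 388 without the filter. It gave 722 with DESeq2 and the block and 36 on 20 libraries. With 1 library left out, edgeR gave 426 calls without sham control library 3, 318 without MOV control library 5, 6 without MOV control library 3, and 0 or 1 otherwise.
For MOV against sham under mimic virus the counts were 0 with edgeR, 223 with DESeq2, 114 with DESeq2 and the block, 3 on 20 libraries and 1 without the filter, and edgeR gave 101 without MOV mimic library 5. For mimic against control within MOV they were 0, 3 with DESeq2, 127 with DESeq2 and the block and 1 on 20 libraries, and for the interaction 0, 1 with DESeq2 and 5 with DESeq2 and the block.

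Same-numbered control and mimic libraries were paired only by number: their deviations correlated between 0.012 and 0.671, over 0.1 in 7 of 10 pairs, and 13 of 20 libraries correlated best with their own number. With the replicate block, mimic against control within MOV turned for Hsp90aa1 (0.0082 in edgeR, 0.012 in DESeq2) and Hsph1 (0.0021 in DESeq2), and the interaction for Cryab (-0.014 in edgeR). The block changed no member's edgeR call. Within MOV, Hspa1a and Hspa1b were lower in mimic than in the control library of the same number in 5 of 5 numbers each. With the block, mimic against control was -0.69 for Hspa1a (edgeR p 0.0015, adjusted p 0.391, DESeq2 adjusted p 0.0716) and -0.54 for Hspa1b (edgeR p 0.0058, adjusted p 0.514), and the interaction -0.94 (edgeR p 0.014) and -1.005 (edgeR p 0.0078), both with an adjusted p of 0.960. Cryab was higher in mimic in 5 of 5 numbers in both surgeries, with 0.27 within MOV (edgeR p 0.0734, adjusted p 0.718) and 0.27 within sham (edgeR p 0.0455, adjusted p 0.9995) under the block. Hspa8 was higher in mimic in 5 of 5 numbers within sham (0.17, edgeR p 0.0970 with the block).

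Left-out libraries turned the sign of several values. Without MOV control library 4 in DESeq2, MOV against sham was -0.11 for Hspa8, -0.27 for Dnajb1 and -0.033 for Hspa5; without libraries 4 and 5 it was -0.051 (edgeR) and -0.060 (DESeq2) for Hspa8 and -0.15 and -0.16 for Dnajb1. Under mimic virus Hsp90aa1 was -0.019 and Dnajb1 -0.035 without the filter, and -0.047 and -0.20 in DESeq2 without MOV mimic library 4. Without both MOV libraries numbered 4, mimic against control within MOV was 0.074 for Hspa8, 0.078 for Hsp90aa1, 0.17 for Hsph1 and 0.0097 for Dnajb1, and the interaction 0.069 for Dnajb1. The causes were not tested.

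With each library left out in turn, edgeR called 0 members in every comparison, and these log2FC ranges crossed 0. Under control virus, MOV against sham ran from -0.27 to 0.45 for Dnajb1, -0.060 to 0.14 for Hspa5, -0.10 to 0.18 for Hspa8 and -0.30 to 0.0057 for Hsph1. Under mimic virus it ran from -0.20 to 0.19 for Dnajb1, -0.073 to 0.095 for Hsp90aa1, -0.88 to 0.018 for Hspa1b, -0.025 to 0.15 for Hspa5 and -0.025 to 0.46 for Hspb1. Mimic against control within MOV ran from -0.50 to 0.21 for Dnajb1, -0.11 to 0.14 for Hsp90aa1, -1.29 to 0.081 for Hspa1b, -0.030 to 0.18 for Hspa5, -0.14 to 0.13 for Hspa8, -0.053 to 0.14 for Hspd1 and -0.13 to 0.16 for Hsph1. Within sham it ran from -0.23 to 0.091 for Dnajb1, -0.055 to 0.15 for Hspa5 and -0.18 to 0.0078 for Hspd1. The interaction ran from -0.28 to 0.29 for Cryab, -0.45 to 0.27 for Dnajb1 and -0.073 to 0.14 for Hspa5.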
